A study of Mus musculus with 61 samples.

Results

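H3K27ac, the acetylation of lysine 27 on histone H3, was compared between PU1 nuclei and NeuN nuclei of the wild type mouse brain, with 2 ChIP-seq libraries for each cell type. A region was placed in a class by the region lists of these 4 libraries, which were merged where they overlapped by 1 bp. PU1-only regions were overlapped in both PU1 libraries and in neither NeuN library, NeuN-only regions were the reverse, and shared regions were overlapped in all 4. The classes held 38616 of 109582 merged regions, of which 3864 were PU1-only, 30453 NeuN-only and 4299 shared. The study asked how a distant enhancer of Sall1, the gene of a microglial transcription factor, acts in microglia, and the series holds 61 samples. All nuclei compared here came from brains of C57/Bl6 mice that are wild type at the Sall1 enhancer, which the study's methods give as males of 8 to 12 weeks, and no transgene or treatment is named. Nuclei were stained for PU.1 or for NeuN and sorted. Nothing in the labels says that the libraries of a cell type came from separate animals, so p-values measure only the spread between these libraries.

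PU.1, encoded by Spi1, is a transcription factor of myeloid cells, and in the healthy brain parenchyma it marks microglia, the resident macrophages. NeuN is the protein of Rbfox3, an RNA-binding splicing factor found in the nuclei of most mature neurons. H3K27ac is deposited by the co-activators p300 and CBP and marks active promoters and enhancers. Promoters of genes that every cell uses tend to carry it in many cell types, while distant enhancers carry it in few. Broad, dense domains of the mark lie at genes that define a cell type.

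The following sequences show what lies inside regions held by only 1 cell type. The first 4 lines are the 300 bases at the centre of the longest stretch held by both libraries, for the first 2 PU1-only and the first 2 NeuN-only regions by tag sum that lay over 3000 bp from a transcription start site (TSS), each named by its nearest gene. They are at chr8:89391932-89392231, chr17:84117894-84118193, chr3:17789249-17789548 and chr2:73600709-73601008 of mm10, on the plus strand.

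Sall1 region, PU1-only: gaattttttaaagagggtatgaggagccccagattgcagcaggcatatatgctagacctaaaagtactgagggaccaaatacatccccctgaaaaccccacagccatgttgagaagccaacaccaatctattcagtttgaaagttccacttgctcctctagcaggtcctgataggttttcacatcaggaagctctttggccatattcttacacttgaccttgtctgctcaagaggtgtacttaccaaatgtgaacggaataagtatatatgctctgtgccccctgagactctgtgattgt
Zfp36l2 region, PU1-only: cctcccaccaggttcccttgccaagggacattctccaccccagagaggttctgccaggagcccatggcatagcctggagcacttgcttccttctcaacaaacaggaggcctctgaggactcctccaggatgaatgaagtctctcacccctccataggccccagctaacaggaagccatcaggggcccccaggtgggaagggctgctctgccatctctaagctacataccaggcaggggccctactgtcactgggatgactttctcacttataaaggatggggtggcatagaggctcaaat
Cypt12 region, NeuN-only: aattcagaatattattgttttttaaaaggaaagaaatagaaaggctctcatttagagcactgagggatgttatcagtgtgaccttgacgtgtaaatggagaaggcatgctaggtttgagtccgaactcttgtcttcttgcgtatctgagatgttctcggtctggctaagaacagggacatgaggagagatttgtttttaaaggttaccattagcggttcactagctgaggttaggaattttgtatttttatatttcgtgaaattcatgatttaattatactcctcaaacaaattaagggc
Chrna1 region, NeuN-only: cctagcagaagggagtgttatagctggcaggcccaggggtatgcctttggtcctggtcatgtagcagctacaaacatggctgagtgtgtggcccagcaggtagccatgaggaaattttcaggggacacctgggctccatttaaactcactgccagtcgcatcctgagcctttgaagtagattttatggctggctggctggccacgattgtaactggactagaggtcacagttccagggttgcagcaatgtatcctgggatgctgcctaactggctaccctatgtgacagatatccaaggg

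The next 4 lines are 300 bases around p300 peaks inside PU1-only regions, on the plus strand of mm10. The first is the p300 peak of the highest enrichment score in the Sall1 region (chr8:89392764-89393063), where SALL1 and SMAD4 peaks also lay. The other 3 (chr10:60344169-60344468, chr11:95834364-95834663 and chr17:84118295-84118594) are shown because they hold the PU.1 letters GAGGAAGT and were chosen after their letters were seen. Capitals mark a match to any motif searched, on either strand: the PU.1 letters in all 3, read as ACTTCCTC where they lie on the minus strand, and in the Gngt2 line also the E-box CAGATG, read as CATCTG.

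Sall1 region, p300 peak: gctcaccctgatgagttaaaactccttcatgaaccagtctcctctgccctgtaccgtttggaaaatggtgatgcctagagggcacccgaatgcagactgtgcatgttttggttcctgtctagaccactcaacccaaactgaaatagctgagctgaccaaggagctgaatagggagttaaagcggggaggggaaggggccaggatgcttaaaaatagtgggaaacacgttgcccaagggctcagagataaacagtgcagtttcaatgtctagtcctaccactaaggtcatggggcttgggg
Vsir region, p300 peak: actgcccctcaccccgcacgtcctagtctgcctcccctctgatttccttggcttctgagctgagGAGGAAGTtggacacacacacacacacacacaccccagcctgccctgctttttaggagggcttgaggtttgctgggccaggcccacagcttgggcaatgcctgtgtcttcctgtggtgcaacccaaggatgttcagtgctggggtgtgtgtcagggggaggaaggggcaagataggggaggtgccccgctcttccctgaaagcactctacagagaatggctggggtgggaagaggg
Gngt2 region, p300 peak: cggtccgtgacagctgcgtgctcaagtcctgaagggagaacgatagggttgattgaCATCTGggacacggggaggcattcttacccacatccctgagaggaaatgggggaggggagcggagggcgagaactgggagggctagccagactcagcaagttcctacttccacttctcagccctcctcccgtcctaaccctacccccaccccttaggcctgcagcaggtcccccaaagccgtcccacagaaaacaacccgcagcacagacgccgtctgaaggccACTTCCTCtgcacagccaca
Zfp36l2 region, p300 peak: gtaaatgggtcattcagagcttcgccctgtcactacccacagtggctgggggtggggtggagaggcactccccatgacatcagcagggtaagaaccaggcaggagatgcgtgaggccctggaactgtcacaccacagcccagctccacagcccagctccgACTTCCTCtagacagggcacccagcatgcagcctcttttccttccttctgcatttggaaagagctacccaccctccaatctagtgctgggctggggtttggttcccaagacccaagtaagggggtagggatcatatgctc

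The last 2 lines are promoters, from 250 bases before to 50 bases after the start, of a gene whose TSS was held only in PU1 nuclei (Cx3cr1, chr9:120068247-120068546, minus strand) and of one held only in NeuN nuclei (Slc17a7, chr7:45163671-45163970, plus strand). They come from RefSeq, build GRCm38.p6, and are printed in the direction of transcription. The capitals mark an E-box (CAGATG) in the first and the IRF letters AANNGAAAC in the second, which 14.5% and 5.42% of all 16522 promoters of this length held.

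Cx3cr1 promoter: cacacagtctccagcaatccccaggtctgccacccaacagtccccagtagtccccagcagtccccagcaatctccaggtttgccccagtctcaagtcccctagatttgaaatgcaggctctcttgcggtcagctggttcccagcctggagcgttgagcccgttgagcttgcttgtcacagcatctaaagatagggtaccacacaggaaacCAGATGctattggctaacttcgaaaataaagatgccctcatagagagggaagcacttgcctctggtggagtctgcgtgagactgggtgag
Slc17a7 promoter: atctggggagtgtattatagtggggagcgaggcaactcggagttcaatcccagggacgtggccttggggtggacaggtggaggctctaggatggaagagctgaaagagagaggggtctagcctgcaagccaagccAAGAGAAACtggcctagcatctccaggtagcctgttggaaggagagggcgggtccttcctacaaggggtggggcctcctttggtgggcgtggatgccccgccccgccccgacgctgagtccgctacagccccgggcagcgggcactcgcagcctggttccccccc

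The 4 libraries were not alike in yield, and PU1 library 1 stood apart. It was the deepest, with 19667771 tags against 12000860 in PU1 library 2, 8997610 in NeuN library 1 and 7970065 in NeuN library 2, but only 8.04% of its tags lay in its listed regions, against 53.5%, 45.6% and 54.8%. It listed 11149 regions over 17.4 Mb. PU1 library 2 listed 36057 regions over 62.6 Mb, and NeuN libraries 1 and 2 listed 64931 and 68560 regions over 103 and 105 Mb. Nearly all of what PU1 library 1 listed was also in PU1 library 2 (95.3% of its regions), while 24.9% of the regions of PU1 library 2 were in library 1. The NeuN libraries overlapped each other in 67.2% and 63.0% of their regions. Requiring both PU1 libraries therefore limited the PU1-only class, and counts are also given with PU1 library 2 alone.

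With PU1 library 2 alone, 23003 regions were PU1-only, 30504 NeuN-only and 9882 shared. The NeuN-only class hardly moved, while the PU1-only and shared classes grew. The regions it gained were weak and narrow: the 19130 NeuN-free regions found in library 2 but not in library 1 had a median of 17.5 tags and 501 bp, against 281.2 tags in library 2 and 3304 bp for the regions held by both. Tags are normalized here to a depth of 10000000 per library. Of the NeuN-free regions of PU1 library 2, library 1 listed 0.754% of the 15907 under 50 tags, 46.7% of the 1924 from 100 to under 200 tags and 99.2% of the 1077 of at least 500 tags. Detection in library 1 thus rose with strength in library 2, and the strongest PU1 regions were held by both libraries.

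**Figure D1:**
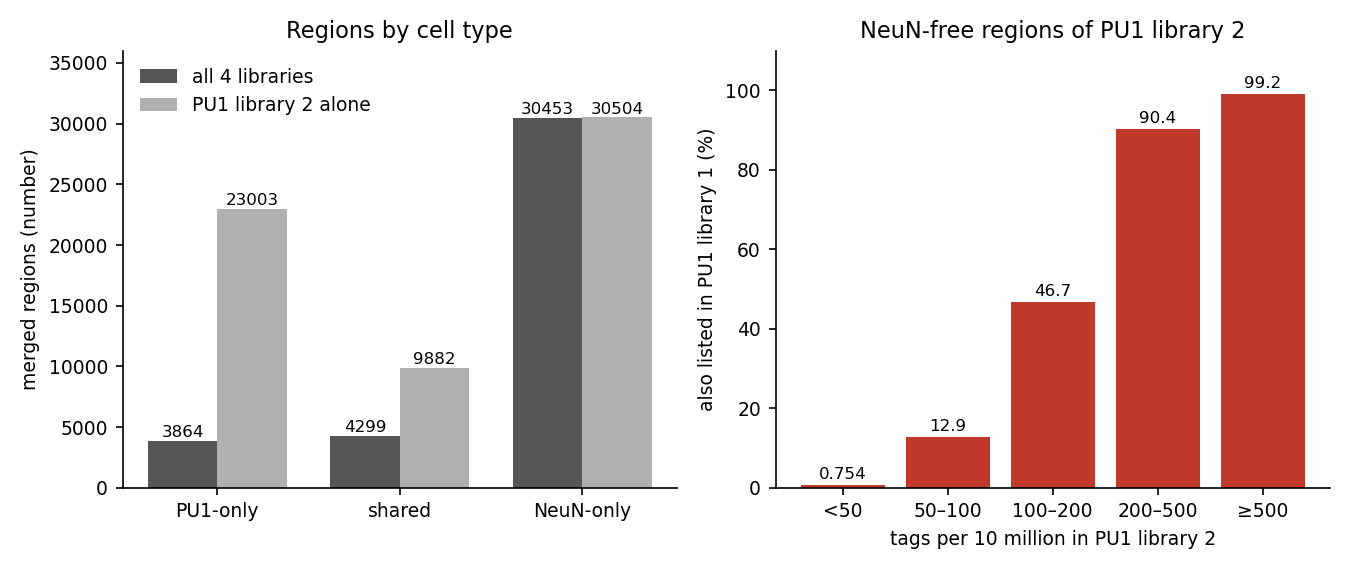
Left, number of merged regions in each class with both PU1 libraries required and with PU1 library 2 alone; right, share of the NeuN-free regions of PU1 library 2 that PU1 library 1 also listed (percent), by their normalized tags in library 2. The PU1-only bar is 3864 with both libraries and 23003 with library 2 alone, and the share found by library 1 runs from 0.754% under 50 tags to 99.2% at 500 tags or more.

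Both cell-type-restricted classes lay mainly away from promoters, as merged regions in general did, while the shared class lay mainly on them. Of PU1-only regions 85.6% were distal, that is over 3000 bp from any TSS of a protein-coding gene, and 13.1% held a TSS. NeuN-only regions were similar, with 86.3% distal and 12.2% holding a TSS, while 34.0% of shared regions were distal and 69.7% held a TSS. Of all 109582 merged regions 93841 were distal, a share near that of both one-sided classes, so only the shared class stood apart. By their centres, 45.6% of PU1-only regions lay in introns and 42.4% between genes, against 51.3% and 35.0% of NeuN-only regions. PU1-only regions had a median width of 3304 bp and shared regions 3388 bp, while NeuN-only regions had 1948 bp. With PU1 library 2 alone the medians were 682, 2461 and 1947 bp, so the order of PU1-only and NeuN-only regions was reversed. Regions over 10 kb numbered 204 (5.28%) in the PU1-only, 505 (1.66%) in the NeuN-only and 447 (10.4%) in the shared class. With PU1 library 2 alone, 89.6% of PU1-only regions and 36.0% of shared regions were distal, so the contrast in distal share, unlike that in width, did not rest on PU1 library 1.

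The strongest PU1-only regions were broad domains. The region of the highest tag sum, counted in the library where it was lower, lay between genes 355 kb from the TSS of Sall1 (chr8:89382457-89415822, 33.4 kb). It held 2094.3 tags in PU1 library 1 and 10992.5 in PU1 library 2. No region was listed there in either NeuN library, in either Olig2 library or in either PU1 library of the EKO mice, which carry a homozygous deletion of a distant Sall1 enhancer. One NeuN library of EKO mice, library 1, listed a region there. The paper's deletion removed part of a super-enhancer upstream of Sall1, bound by SALL1 and SMAD4 in WT microglia. By the paper's account the deletion is shorter than this domain, so part of the domain without listed regions was not deleted. Within the deleted bases, their absence and loss of the mark cannot be told apart in PU1 libraries of EKO mice. Within the domain lay 4 SALL1 peaks, 3 SMAD4 peaks and 3 p300 peaks of WT mice. The 3 p300 peaks lay 10.5, 14.3 and 22.1 kb from the start of the domain, each with a SALL1 and a SMAD4 peak within 0.1 kb of its centre. The p300 sequence printed above is that of the first of them.

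The other PU1-only regions of highest tag sum were named by the gene whose TSS they held or lay nearest to. A 36.5 kb region 76.6 kb from the TSS of Zfp36l2, which encodes an RNA-binding protein that promotes mRNA decay, held 1631.1 and 9809.3 tags in PU1 libraries 1 and 2. A region holding the TSS of Vsir, the gene of the immune checkpoint receptor VISTA, held 1310.86 and 7571.9 tags. A region at Cd180, which encodes a Toll-like receptor homologue, held 1043.7 and 5705.4 tags. In each of these PU1 library 2 was well above library 1, and no NeuN library had a region. The other 4, at Crybb1 and Cryba4, at Cmtm7, near Slco4a1 and at Gngt2 and Abi3, held 893.8 to 1007.2 tags in library 1 and 4433 to 5467.9 in library 2. Apart from the Sall1 domain, all of these regions were also listed in both PU1 libraries of EKO mice, and 1 of them, at Cd180, had a region in both NeuN libraries of EKO mice.

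The strongest NeuN-only regions were also broad, and some lay across a gene and others away from any TSS. A 65.2 kb region across Add2, the gene of the membrane skeleton protein beta-adducin, held 4677.9 tags in NeuN library 1 and 5390.2 in NeuN library 2. Regions at Bcl11a and Bcl11b, which encode transcription factors of cortical neurons, held 3207.5 and 2989.9 tags and 3489.8 and 2693.9 tags. The 2 NeuN libraries were of like height at these, unlike the PU1 libraries. A region at Lingo1, the gene of a neuronal membrane protein, held 2834.1 and 5441.6 tags. The distal regions nearest to Cypt12 (157 kb from its TSS) and Chrna1 (20.8 kb) held 3214.2 and 3478 tags and 3187.5 and 4846.9 tags. None of these 6 regions had a SALL1 peak, and all 6 had regions in both NeuN libraries of EKO mice.

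The 5 strongest shared regions lay at Plekho1, near Dusp7, at Kif21b, at Zeb2 and at Junb, and held 661.5 to 1213.7 tags in PU1 library 1, 3507.2 to 6922.8 in PU1 library 2, 1071.4 to 2794.09 in NeuN library 1 and 1393.9 to 3276 in NeuN library 2. Zeb2, a transcription factor gene used in both neurons and microglia, held 817.6 and 4341.3 tags in PU1 and 2794.09 and 3276 in NeuN libraries.

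**Figure D2:**
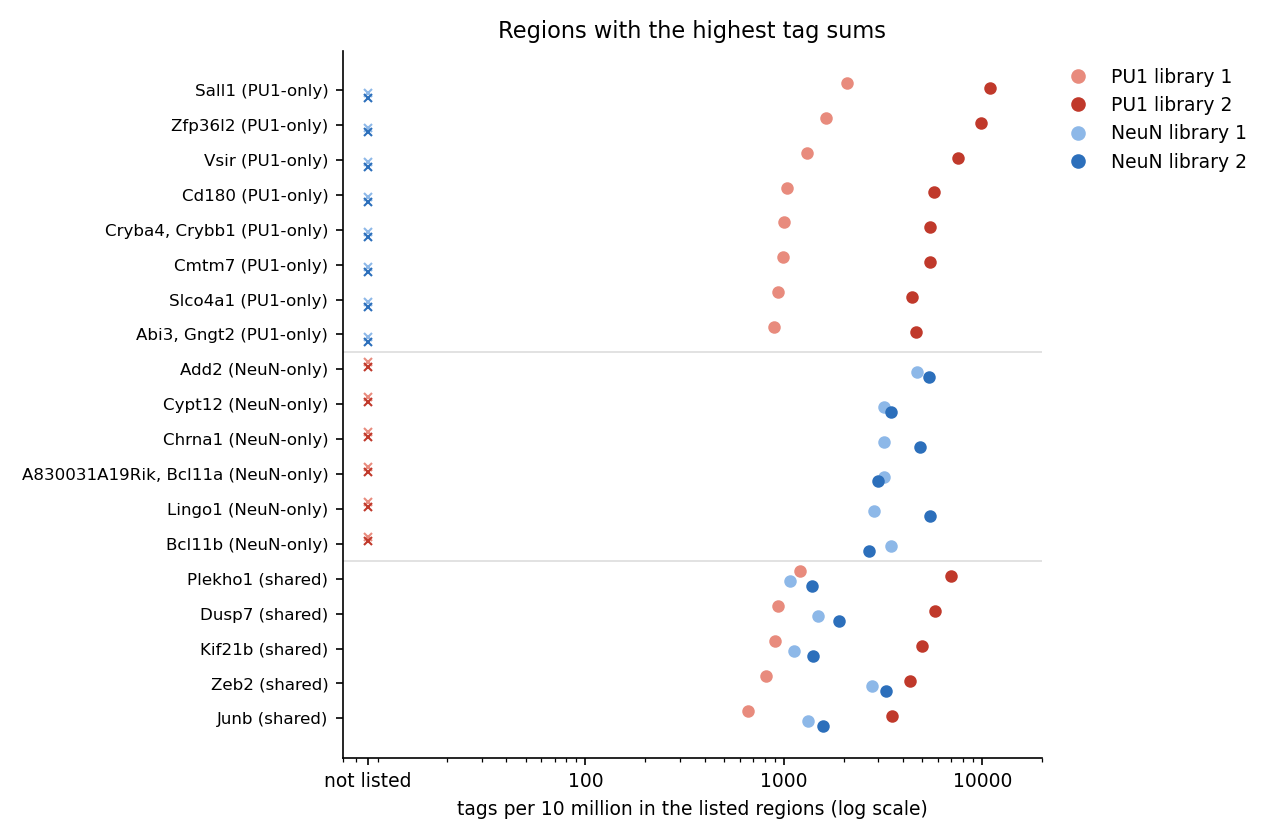
Normalized tags (scaled to a depth of 10000000, log scale) in 8 PU1-only, 6 NeuN-only and 5 shared regions among those of highest tag sum, 1 point per library, with a cross where a library listed no region. PU1 library 2 lies to the right of PU1 library 1 in every PU1-only row, and the highest PU1-only row is the Sall1 domain at 2094.3 and 10992.5 tags.

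Genes were then classed by whether a region overlapped any of their TSS with 1000 bp on each side. Tags given for a gene are summed over the whole of every listed region that overlaps these windows. They therefore grow with the width listed. Of 21938 protein-coding genes, 511 (2.33%) had a PU1-only TSS, 3655 (16.7%) a NeuN-only TSS and 3312 (15.1%) a shared TSS, 6033 were held in another combination (called in between) and 8427 in no library. With PU1 library 2 alone, 1209 (5.51%) were PU1-only, 3708 (16.9%) NeuN-only and 7227 (32.9%) shared. The share of shared genes thus depended on PU1 library 1, which held the TSS of 4031 genes, against 8964 in PU1 library 2 and 11815 and 11406 in the NeuN libraries.

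The sorted populations carried the marks of their labels. Of 30 microglia identity genes, 21 had a PU1-only TSS, against 2.33% of all genes, 5 were shared, 4 in between and 0 NeuN-only. Cx3cr1, the fractalkine receptor gene, held 745.9 tags over 10.5 kb of listed regions in PU1 library 1 and 17976.2 over 47.0 kb in PU1 library 2. Tmem119, a microglial surface protein gene, held 287.8 and 8711 tags, and Csf1r, the gene of the receptor on which microglia depend for survival, held 566.4 and 4545.5 tags. No NeuN library listed a region at these 3. At P2ry12, the gene of the purinergic receptor that steers microglial processes, the PU1 libraries held 1245.3 and 9944.2 tags and the NeuN libraries 31.1 and 40.2, so it counted as shared. Summed over the 30 genes with 5 kb on each side, listed regions covered 339 and 657 kb in PU1 libraries 1 and 2 and 76.3 and 65.1 kb in NeuN libraries 1 and 2.

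Of 20 pan-neuronal genes, 19 had a NeuN-only TSS, against 16.7% of all genes, and 0 a PU1-only TSS. Rbfox3 itself, whose protein was used to sort, held 1762.6 and 2547 tags in the NeuN libraries. Map2, the gene of a dendritic microtubule protein, held 736.9 and 555.8 tags. Snap25 and Syt1, genes of synaptic vesicle release, held 1014.7 and 1066.5 tags and 765.8 and 1155.6 tags. None of these 4 had a TSS region in a PU1 library. The exception among the 20 was Dlg4, the gene of the postsynaptic protein PSD-95, with 65 tags in PU1 library 2. Listed regions over these genes covered 2.93 and 24.1 kb in the PU1 and 750 and 727 kb in the NeuN libraries.

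Transcription factor genes of myeloid cells were PU1-only in 8 of 16 cases, against 2.33% of all genes, and shared in 6, against 15.1%. In regions over its TSS, Spi1 held 191.7 and 1154.9 tags in PU1 libraries 1 and 2. Irf8, a partner of PU.1, held 96.1 and 2146.5 tags, and Runx1, a regulator of blood cell development, 152.5 and 1369.9 tags. No NeuN region lay at any of these. The shared members were Bhlhe41, Cebpa, Cebpb, Maf, Mef2a and Mef2c. Mef2c, of which neurons also make much, held 391.1 and 2566.5 tags in the PU1 and 1093.5 and 1010.2 in the NeuN libraries, and Bhlhe41 held 198.3 and 935.8 against 658 and 565.9.

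Of 22 innate sensing and cytokine genes, 12 were PU1-only, against 2.33% of all genes, 4 shared, near the 15.1% of all genes, and 6 in between, and 16 were PU1-only with PU1 library 2 alone, against 5.51%. Tlr2 and Tlr4, receptors of bacterial products, held 11.7 and 280 tags and 58 and 445 tags in PU1 libraries 1 and 2. Cd14, a co-receptor, held 112.9 and 692.4 tags, and Tnf, an inflammatory cytokine gene, was listed in library 2 only, at 169.2 tags. No NeuN region lay at these 4. Of 18 phagocytic and lysosomal genes, 8 were PU1-only, against 2.33% of all genes, 7 shared, against 15.1%, 2 in between and 1, Cybb, in no library. The first 4 of that list were all shared: Cd68 held 76.8 and 911.6 tags in PU1 against 41.1 and 30.1 in NeuN libraries, Ctsd, the cathepsin D gene, 223.2 and 7950.3 against 76.7 and 69, Lgmn, the legumain gene, 1785.2 and 9720.1 against 70 and 44, and Grn, the progranulin gene, 242 and 1165.7 against 26.7 and 21.3. In each, both PU1 libraries were above both NeuN libraries, although the value depends on the width listed and on the yield of the library.

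The NeuN libraries differed from each other at genes of neuron subtypes. Of 16 inhibitory neuron genes, 10 were NeuN-only, against 16.7% of all genes, 3 in between and 3 (Npy, Sst and Vip) in no library. Gad1 and Gad2, which make the transmitter GABA, held 1064.7 and 502.4 tags in NeuN library 1 but 128 and 85.3 in NeuN library 2. Slc32a1, the vesicular GABA transporter gene, held 309 and 59, and Lhx6, a transcription factor gene of interneurons, held 14.4 in library 1 and no region in library 2. Listed regions over the 16 genes covered 135 kb in library 1 and 54.3 kb in library 2, and 0 and 0.501 kb in the PU1 libraries. Library 1 was the higher at the TSS of 12 of the 16 and library 2 at 1. At excitatory genes library 2 was the higher in 12 of 15 cases and library 1 in 3, Bcl11b (3234.2 and 1676.3 tags), Slc17a6 (195.6 and 159.3) and Foxp2 (206.8 and 138.1). Slc17a7, the gene of a vesicular glutamate transporter, held 634.6 and 1486.8 tags, Tbr1 1084.7 and 1819.3 and Neurod2 420.1 and 1169.4. Listed regions over the 15 excitatory genes covered 314 kb in NeuN library 1 and 384 kb in library 2, 11 had a NeuN-only TSS, against 16.7% of all genes, and 2 were shared. The labels name the brain as the tissue of both libraries and give no part of it. In such bulk nuclei, fewer nuclei of a subtype and less of the mark per nucleus cannot be told apart.

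Of 16 voltage-gated channel genes, 14 were NeuN-only, against 16.7% of all genes, and 2 in between. Scn2a held 382.3 and 424.1 tags in the NeuN libraries. Cacna1a, in between, held 347.9 and 515.7 tags, and 45.8 in PU1 library 2. Genes induced by neuronal activity were NeuN-only in 6 of 12 cases, against 16.7% of all genes, shared in 2 (Homer1 and Junb), near the 15.1% of all genes, and in between in 4. Npas4, an activity-induced transcription factor gene, held 1823.8 and 2592.2 tags and Arc, a synaptic plasticity gene, 1121.4 and 1879.5, with no PU1 region at either. Egr1 held 1277 and 634.9 tags in the NeuN libraries and 77.5 in PU1 library 2, and Fos held 381.2 and 102.9 against 14.2.

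The TGF-beta pathway, on which microglia depend, was marked in both cell types. Of 18 genes of the pathway, 12 had a shared TSS, against 15.1% of all genes, and 1, Tgfbr2, was in between. PU1-only were 2, against 2.33% of all genes, and NeuN-only 3, near the 16.7% of all genes. Tgfbr1, a receptor gene, held 321.8 and 2059 tags in PU1 libraries and 22.2 and 27.6 in NeuN libraries. Tgfbr2, its partner receptor gene, held 224.2 and 2006.5 tags against 11.1 and no region. Both receptors were thus higher in both PU1 libraries than in either NeuN library. The signal transducer genes Smad3 and Smad4 were closer, at 69.7 and 336.6 against 373.4 and 520.7 tags, and at 22.4 and 64.2 against 71.1 and 54. The NeuN-only members were the ligand genes Tgfb2 (34.5 and 36.4 tags) and Tgfb3 (206.7 and 151.8) and the pseudoreceptor gene Bambi (70 and 41.4). The ligand gene Tgfb1, counted among the innate sensing and cytokine genes, was PU1-only, at 121.5 and 1244.9 tags. The PU1-only members were Smad6, which encodes an inhibitory SMAD (21.4 and 109.2 tags), and Tgif1, which encodes a corepressor (199.8 and 1001.6).

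Genes of other brain cells were checked in the same libraries. Of all genes, 38.4% had no TSS region in these, 2.33% were PU1-only, 16.7% NeuN-only and 15.1% shared. Of 13 oligodendrocyte lineage genes, 11 had no TSS region in any of the 4 libraries, Olig1, Olig2 and Sox10 among them. Mog held 150 tags in PU1 library 2 and Cnp was shared, at 41.2 and 279.1 tags in PU1 and 50 and 76.5 in NeuN libraries. All 13 were held in both Olig2 libraries. Of 11 astrocyte genes, 6 had no TSS region, among them Gfap, Aqp4 and Aldh1l1. NeuN-only were 3, of which Slc1a2, a glutamate transporter gene, held 512.3 and 894.6 tags. In between were Slc1a3, at 81.7 tags in PU1 library 2 and 13.8 in NeuN library 2, and S100b, at 52.7 in NeuN library 2. Of 11 endothelial and mural genes, 7 had no TSS region, among them Cldn5, Flt1 and Cdh5, while Pecam1 was PU1-only at 76.3 and 591.6 tags. In between were Kdr (233.3 tags in PU1 library 2), Esam (119.2 in NeuN library 2) and Slc2a1. Slc2a1 held 74.2 tags in PU1 library 2 and 66.7 and 42.7 in the NeuN libraries. Of 8 lymphocyte genes, 7 had no TSS region, among them Cd3e, Cd3d and Cd79a, and Lck held 1042.4 tags in PU1 library 2 alone. Of 10 border macrophage genes, PU1 library 1 held the TSS of 2, PU1 library 2 of 9 and either NeuN library of 0. Mrc1 held 29.2 tags, Lyve1 7.5 and F13a1 8.33 in PU1 library 2, and Cd163 had no region, while Siglec1 held 1013.3. The part that other PU.1 positive cells had in the PU1 libraries was not tested. Of 16 housekeeping genes, 10 were shared and 6 in between, and all 16 were shared with PU1 library 2 alone. Actb held 526.2 and 2752.3 tags in PU1 against 433.4 and 547 in NeuN libraries, Gapdh 38.6 and 295 against 702.4 and 764.1, Ppia 44.7 and 236.6 against 367.9 and 400.2, and Hprt 10.7 and 177.5 against 63.4 and 61.5.

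**Figure D3:**
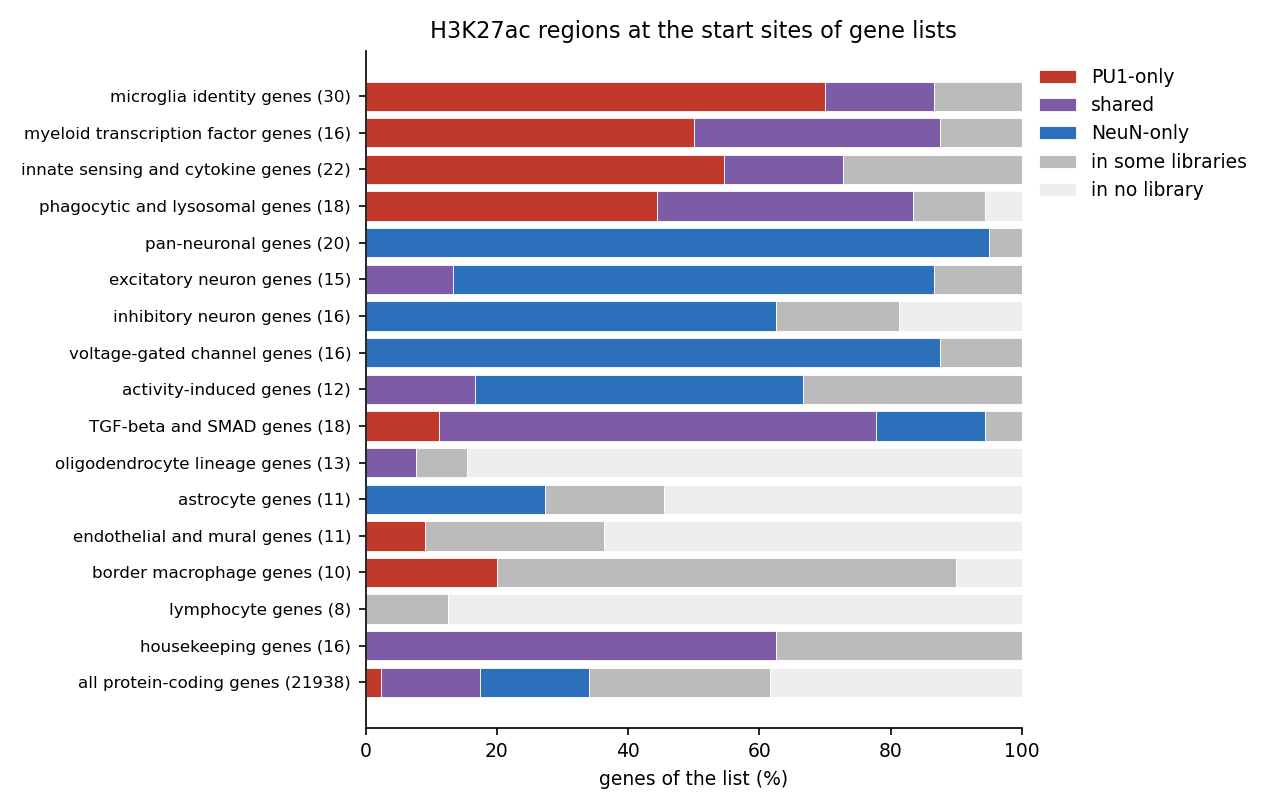
Percent of the genes of each list whose TSS was PU1-only, NeuN-only, shared, in between (in some libraries) or in no library, with both PU1 libraries required. The microglia identity row is PU1-only for 21 of 30 genes and the pan-neuronal row NeuN-only for 19 of 20, and 11 of 13 oligodendrocyte lineage genes have no region.

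The classes were then read in libraries that had not defined them. Both PU1 libraries of EKO mice listed most PU1-only regions (93.6% and 92.3%) and few NeuN-only regions (3.48% and 3.08%). The NeuN libraries of EKO mice were the reverse, with 7.56% and 4.58% of PU1-only and 87.99% and 85.6% of NeuN-only regions. Each PU1 library thus held the PU1-only regions far more than each NeuN library did. Of the 19587 regions held by 1 PU1 library and no NeuN library, PU1 libraries of EKO mice listed fewer, 33.6% and 30.2%. NeuN libraries of EKO mice listed 3.98% and 2.57% of them. The Olig2 libraries held 15.9% and 17.6% of PU1-only, 20.0% and 20.0% of NeuN-only and 79.9% and 79.0% of shared regions. Open chromatin windows in the H3K27ac table of sorted WT microglia lay in 98.7% of PU1-only and 19.9% of NeuN-only regions. Their median was 50.1 and 37.8 tags in the PU1-only regions and 4.52 and 3.98 in the NeuN-only regions, for microglia libraries 1 and 2. Over all 133129 windows it was 9.03 and 7.96.

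SALL1, SMAD4 and p300 peaks of WT microglia or PU1 nuclei fell in PU1-only and shared regions and hardly in NeuN-only regions. SALL1 peaks overlapped 68.9% of PU1-only regions, 40.8% of shared and 0.591% of NeuN-only regions. The shares for p300 were 48.3%, 45.0% and 0.640%, and those for SMAD4 were 30.6%, 28.2% and 0.0952%. Of the 19587 regions held by 1 PU1 library and no NeuN library, SALL1 peaks overlapped 13.8%, p300 peaks 5.94% and SMAD4 peaks 2.00%. These peaks were measured in microglia or PU1 nuclei alone, so they say nothing of what binds in neurons. Each is 1 list made from several libraries and gives no spread.

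**Figure D4:**
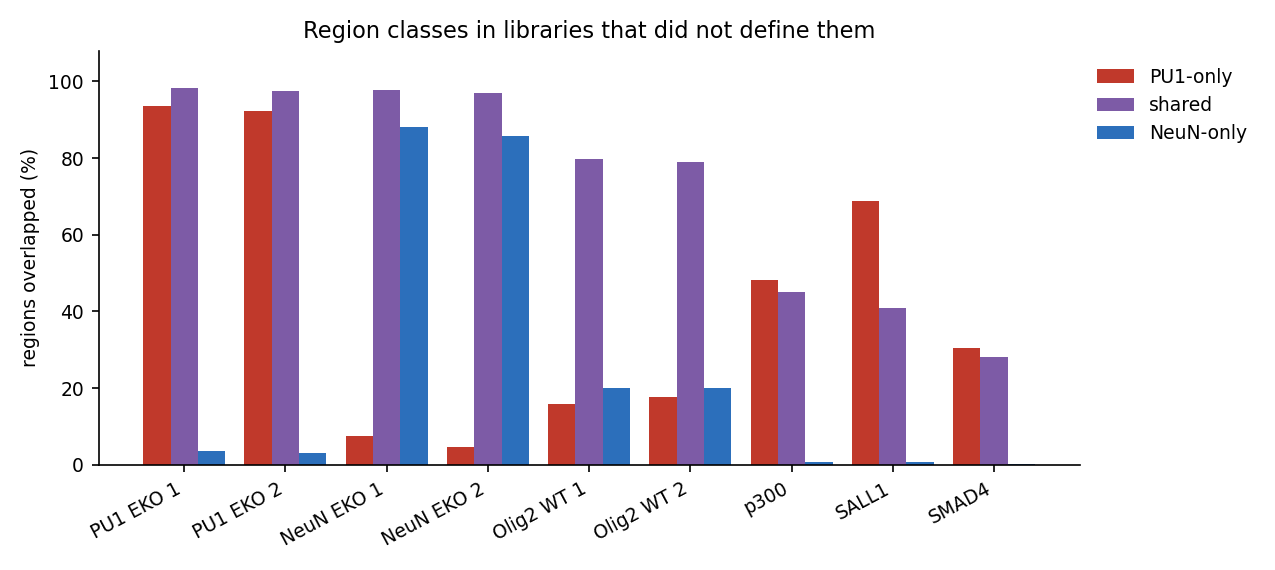
Percent of PU1-only, NeuN-only and shared regions overlapped by regions or peaks of libraries and lists that did not define the classes, 1 bar per class and library or list. PU1 libraries of EKO mice hold 93.6% and 92.3% of PU1-only regions and NeuN libraries of EKO mice 87.99% and 85.6% of NeuN-only regions, and SALL1 peaks lie in 68.9% of PU1-only and 0.591% of NeuN-only regions.

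Sequence letters differed between the classes. The PU.1 letters GAGGAAGT, searched on both strands in the central 1000 bp, were in 18.8% of PU1-only, 5.67% of NeuN-only and 8.86% of shared regions, against 7.90% of all merged regions. The IRF letters AANNGAAAC, a site of interferon regulatory factors, were in 27.1%, 20.7% and 17.1%, against 22.3% of all. The MAF letters TGCTGAC were in 19.4%, 15.6% and 13.4% against 15.8%, and the SMAD letters CAGACAG in 33.3%, 29.1% and 24.0% against 28.6%. Of these 4, the PU.1 letters had the widest gap between PU1-only and NeuN-only regions. Other letters were in a smaller share of PU1-only than of NeuN-only regions in this window: the RFX letters GTTGCCATG were in 1.01% of PU1-only and 2.59% of NeuN-only regions (1.80% of all), the MEF2 letters TATTTTTAG in 2.85% and 4.02% (3.33%), the E-box CAGATG in 56.1% and 60.8% (58.3%) and the AP-1 letters TGANTCA in 27.3% and 32.0% (30.0%). The CRE letters TGACGTCA and the EGR letters GCGTGGGCG were most frequent in shared regions, at 3.23% and 1.91%, against 1.12% and 0.430% of all. The median GC content of these windows was 46.5% in PU1-only, 46.3% in NeuN-only and 54.3% in shared regions.

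Narrower windows gave the same order for the PU.1 letters but not for all others. Of 300-base windows on p300 peaks, 19.4% of 2427 in PU1-only regions and 10.9% of 2836 in shared regions held them, against 14.1% of all 9175. In promoters of RefSeq they were in 10.0% of 399 at a PU1-only TSS, 1.39% of 2731 at a NeuN-only TSS and 3.02% of 2646 at a shared TSS, against 3.12% of all 16522. The AP-1 letters and the E-box turned round in both. In promoters AP-1 was in 9.27% at a PU1-only and 4.76% at a NeuN-only TSS (7.10% of all) and the E-box in 17.5% and 12.9% (14.5%). On p300 peaks AP-1 was in 10.3% of those in PU1-only and 4.28% of the 187 in NeuN-only regions (9.35% of all) and the E-box in 24.2% and 11.8% (20.3%). MEF2 turned round on p300 peaks only (1.24% and 0%) and SMAD in promoters only (7.52% and 7.69%). The p300 peaks came from microglia or PU1 nuclei, so these 187 do not stand for sites of neurons. In the 8 named PU1-only regions, 9 of 49 p300 peaks held the PU.1 letters, in 4 regions, and 3 of these peaks are the lines printed above for Vsir, Gngt2 and Zfp36l2. The Sall1 p300 line holds none of the 10 motifs searched, which says only that these letters are not in those 300 bases. A match to letters is a description and was not tested for binding.

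Shared regions could be compared in level. The value compared was log2 of tags per listed kb in each library, centred on its library median, which was 30.8 tags per kb in PU1 library 1, 92.5 in PU1 library 2, 60.0 in NeuN library 1 and 62.6 in NeuN library 2. With limma, 737 of the 4299 (17.1%) were higher in PU1 and 465 (10.8%) higher in NeuN nuclei at an adjusted p under 0.05 and a fold over 2. An edgeR fit to the whole tags recovered from the values, chosen after seeing the data, called 718 and 469, of which 712 and 444 were the same regions. Without centring limma called 0 and 0, with 86 regions at an unadjusted p under 0.05, so the calls are relative to each library's own median. Without PU1 library 1 the fit took in 9883 regions and was centred anew on them. The calls toward PU1 were kept there, while most of the 465 toward NeuN were lost. The missing library and the changed set of regions cannot be told apart in that loss. Across the 4299 regions, which share library and listed width, centred levels correlated at r = 0.73 between the PU1 libraries and 0.85 between the NeuN libraries, and at −0.04 to 0.15 between cell types.

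Regions higher in PU1 nuclei were mostly distal and those higher in NeuN nuclei were mostly promoters. Of the 737, 74.6% were distal and 33.0% held a TSS, while of the 465, 8.39% were distal and 92.3% held a TSS. Of the 1460 distal shared regions, 550 were higher in PU1 and 39 in NeuN nuclei, and of the 2839 within 3000 bp of a TSS, 187 and 426. Without PU1 library 1, 61.4% of those higher in PU1 and 28.8% of those higher in NeuN nuclei were distal. SALL1 peaks overlapped 77.3% of those higher in PU1 and 16.1% of those higher in NeuN nuclei. For p300 peaks it was 68.9% and 29.7%, and for SMAD4 peaks 52.1% and 14.4%. The former regions had a median width of 6229 bp and the latter 2545 bp, and a wider region has more room for a peak. Olig2 libraries held 49.4% and 50.3% of the former and 98.1% and 97.8% of the latter.

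The largest difference toward PU1 lay near a gene of a regulator of G protein signalling. A region 88.2 kb from the TSS of Rgs2 held 99.7 and 230 tags per kb in PU1 libraries 1 and 2 and 17.7 and 23.5 in the NeuN libraries, a centred log2 difference of 3.09 (SE 0.29, adjusted p = 5.8e-06, limma). Among the 8 largest was a region 10.6 kb from the TSS of Spi1, the gene of PU.1 (chr2:91077423-91093659), which held 96.5 and 306 tags per kb against 22.3 and 32.3, a log2 difference of 2.88 (SE 0.27, adjusted p = 5.8e-06, limma). Both PU1 libraries lay above both NeuN libraries in these. The other 6, nearest to Prag1, Cebpg (a C/EBP transcription factor gene), Irf2bpl, Ppcdc, Osgin1 and Nfatc1 (a calcium-regulated transcription factor gene), had log2 differences of 2.86 to 2.97, and none of the 8 held a TSS. In these 8 the NeuN libraries listed at most 4.20 kb, against 3.43 to 19.7 kb in PU1 library 1. The regions of Rgs2, Prag1, Irf2bpl, Osgin1 and Nfatc1 had under 16 tags before normalization in at least 1 library. At Rgs2, NeuN library 1 listed only 0.501 kb. The values depend on dividing by the listed width: on summed tags the 8 log2 differences were 4.73 to 7.02, with 6.57 at Spi1 and 5.84 at Rgs2.

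The largest differences toward NeuN lay at promoters, with 2 exceptions. A region 180 kb from the TSS of Mkln1, the gene of muskelin, held 21.5 and 71.9 tags per kb in the PU1 and 201 and 257 in the NeuN libraries, a log2 difference of −2.33 (SE 0.25, adjusted p = 8.6e-06, limma). The promoter region of Arf3, the gene of a Golgi GTPase, held 22.4 and 45.7 against 136 and 172, a log2 difference of −2.06 (SE 0.28, adjusted p = 4.2e-05, limma). Both NeuN libraries lay above both PU1 libraries. The others, at Kctd2 and Atp5h, near 1700001O22Rik, at Pigp and Ttc3, at Dnajb2 (a co-chaperone gene), at Cd276 and at Aes, had log2 differences of −2.20 to −2.03. On summed tags the 8 ran from −5.40 to −2.82.

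**Figure D5:**
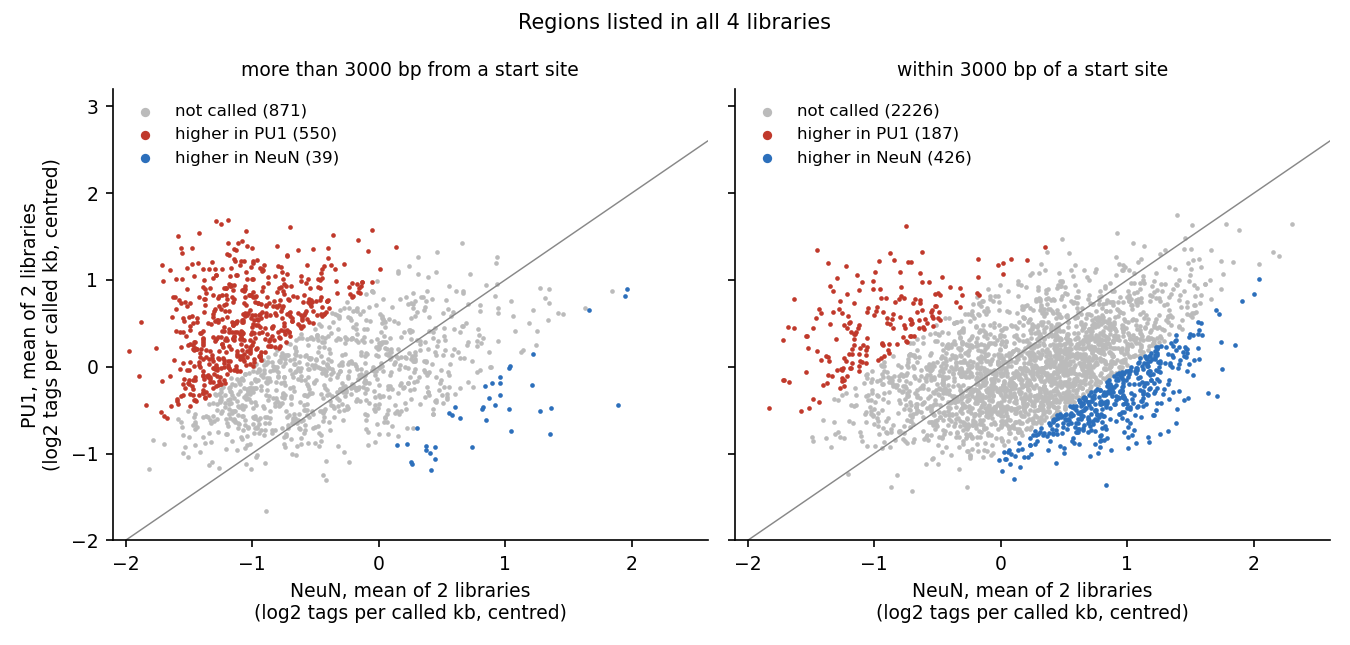
Mean centred log2 tags per listed kb of the 4299 shared regions in PU1 (vertical) against NeuN nuclei (horizontal), for distal regions and for regions within 3000 bp of a TSS, coloured by the limma call. Of the distal regions 550 are higher in PU1 and 39 in NeuN nuclei, and of the others 187 and 426.

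Microglia identity genes with a TSS in a shared region lay mostly in regions higher in PU1 nuclei. They fell in 11 such regions, of which 9 were higher in PU1 and 0 in NeuN nuclei, against 17.1% and 10.8% of all shared regions. Selplg, the gene of a selectin ligand, was in a region with a log2 difference of 2.56 (SE 0.29, adjusted p = 8.6e-06, limma), and the regions of Aif1 and Rgs10 were at 2.37 and 2.22. P2ry12 and P2ry13 lay in 1 region at 2.01. The exceptions were a region with the TSS of Tmem119, Sart3 and Iscu, at 0.33, and one with the TSS of Tyrobp, Hcst and Nfkbid, at 0.09. Neither passed the test (adjusted p = 0.35 and 0.79, limma). A merged region can thus be shared where a gene's own TSS was PU1-only, as for Tmem119. Of 7 such regions of the phagocytic and lysosomal genes, 3 were higher in PU1 nuclei, those of Lgmn (2.54), Grn (1.90) and Ctsd (1.77), and 4 were not called, with Cd68 at 0.57, Hexa at 0.35, Ctsb at 0.19 and Lamp1 at −0.40.

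Of 12 TGF-beta genes with a TSS in a shared region, 2 passed the test at a fold over 2. Both were higher in PU1 nuclei, a share near the 17.1% of all shared regions. Tgfbr1 had 62.3 and 176 tags per kb in the PU1 and 26.9 and 30.6 in the NeuN libraries, a log2 difference of 2.07 (SE 0.28, adjusted p = 3.8e-05, limma), and Ski, the gene of a repressor of SMAD signalling, was at 1.11 (SE 0.26, adjusted p = 0.0029, limma). Acvr2a, a receptor gene, was at −0.92 (adjusted p = 0.025, limma) and Smad3 at −0.68 (adjusted p = 0.049, limma), both under a fold of 2. Of 5 regions of activity-induced genes 1 was higher in NeuN nuclei, that of Homer1 at −1.62, and of 10 of housekeeping genes 2, those of Gapdh (−1.44) and Ywhaz (−1.17), against 10.8% of all shared regions. Of the housekeeping regions not called, Gusb was at 0.83 and Actb at 0.36. For a single value of 2 libraries against 2, the smallest two-sided p of an exact permutation test is 0.333, so the values per library above carry no test of their own.

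Genes with a TSS held in 1 cell type and the widest listed regions there were picked after their values were seen. Over the gene with 5 kb on each side, Itgb5, an integrin gene, was covered for 42.8 and 98.4 kb in the PU1 libraries and 0 and 0.501 kb in the NeuN libraries, and Mertk, a receptor gene for uptake of dying cells, for 22.7 and 78.2 kb against 0.914 and 0.793 kb. Outside the TSS the NeuN libraries also listed regions in some of these windows. Cx3cr1 was covered for 43.6 and 57.04 kb against 14.04 and 13.8 kb, and Nav3 for 22.1 and 55.5 kb against 52.0 and 64.7 kb. The window of Cx3cr1 spans 178 kb, so its NeuN regions need not lie near the TSS or belong to this gene. Of those with a NeuN-only TSS, Kalrn was covered for 208 and 235 kb in the NeuN and 0 and 4.44 kb in the PU1 libraries, and Grin2b, a glutamate receptor gene, for 161 and 166 kb with no PU1 region.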

How the data were processed

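H3K27ac ChIP-seq was compared between 2 PU1 and 2 NeuN libraries of WT nuclei, with depths of 7970065 to 19667771 tags. The authors mapped reads to mm10 with Bowtie2 and called broad regions per library with HOMER, against input. Per the file headers, each deposited list gives a tag signal scaled to a depth of 10000000 and a fold ratio over input, at least 4 in every region. NeuN library 2 also has deposited counts of tags. The authors' SALL1, SMAD4 and p300 lists hold reproducible peaks with an enrichment score, used only to rank peaks. Columns of the authors' statistics were not used.

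Depth was recovered because every signal value is a whole multiple of 1 tag (100% within 0.15 tags, and equal to the deposited counts in 100% of regions of NeuN library 2). Lists were merged at 1 bp. Regions are at least 500 bp wide. Genes and TSS were protein-coding GENCODE M21 on GRCm38, and sequences and promoters came from RefSeq GRCm38.p6. Named genes were the first 4 of each list, the 8 PU1-only, 8 NeuN-only and 5 shared regions with the highest tag sum in their lowest library, and the 8 largest limma differences in each direction. The members and gene lists were chosen with earlier results of these data known. The study used DESeq2, and limma 3.58.1 (R 4.3.3, mean-variance trend, Benjamini-Hochberg) took its place since the lists hold normalized tags; edgeR 4.0.16 was the alternative. Scripts used Python 3.11.15, pandas 2.3.3, numpy 2.4.6, pysam 0.24.0 and matplotlib 3.10.9. In 4299 simulated regions made like those of the 4 libraries, limma recovered 68% and 72% of changes of 2 and −2 on the log2 scale, 94% and 96% of those of 3 and −3, and called 0.0244% of unchanged regions. Regions on unplaced sequences (5 to 26 a library) were left out. Other results of the series were not analysed here. Some named regions and genes are not reported here.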

Additional observations from a re-analysis of the deposited data

How the results depend on the processing

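Leaving out each library in turn gave 4199 to 23003 PU1-only, 30504 to 56962 NeuN-only and 4241 to 9882 shared regions, 527 to 1209 genes with a PU1-only and 3708 to 7570 with a NeuN-only TSS, and 787 to 1426 shared regions higher in PU1 and 467 to 1321 higher in NeuN nuclei. The 23003, 9882, 1209, 1426 and 1321 came without PU1 library 1, the 7570 without PU1 library 2, and the 56962 without NeuN library 1 (52935 without NeuN library 2). Without PU1 library 2, 5966 regions were PU1-only. Where 1 library was left in a group, limma assumed that it varied like the other group. Each such fit took the regions held by all its libraries, 4350 to 9883, and was centred anew on them. At a fold over input of at least 8, 2544, 20169 and 2693 regions were PU1-only, NeuN-only and shared.

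For shared regions, limma called 0 and 0 without centring (86 at an unadjusted p under 0.05, and 718 and 469 by edgeR with centring) and 1208 and 963 on summed tags per merged region. The median log2 difference over all shared regions was −0.06 with centring, −0.26 without it and −0.11 after quantile normalization. Requiring 500 bp of overlap changed nothing, since no listed region is narrower. Of 52 alternative values of these counts, 36 stayed within 1.5 times the value given and 16 did not. At the 16 named shared regions the 138 values available under all alternatives but 1 kept direction and call. Without centring all 16 kept direction and lost the call. The regions of Rgs2, Prag1, Irf2bpl, Osgin1, Nfatc1 and Kctd2 had no value where at least 16 tags were required in every library, so they were not checked under that setting.

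The replicate numbers were used as a block in limma, which gave 735 regions higher in PU1 and 463 higher in NeuN nuclei. The labels do not say that a number marks a shared batch or animal, and the difference between libraries 1 and 2 correlated at r = 0.0063 between the cell types over 4299 regions. With 2 pairs this does not settle whether they pair. The low yield of PU1 library 1 limits what can be called PU1-only or shared, most of all under 50 tags.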
